A study of Mus musculus with 14 samples.

Results

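The enzymes described here break down amino acids in liver. They comprise 39 genes, which were chosen by name for their place in the catabolism of phenylalanine and tyrosine, tryptophan, histidine, serine and threonine, glycine, proline, lysine, the branched-chain amino acids and methionine, together with 4 transaminases. All 39 had a probe on the Agilent mouse array among the 19751 genes that could be named there. They had 49 probes in all, and the brightest probe of each gene was used. Liver RNA of CD-1 mice was compared in 7 sets of competitive hybridizations, each comprising 2 arrays with separate RNA pools and exchanged dyes, which makes 14 arrays. M3, M4 and M8 are males aged 3, 4 and 8 wk, and F3, F4 and F8 are females of the same ages. M3 and F3 pools held RNA of 5 mice each, and the pools of the other groups held RNA of 6 mice each, so that 10 or 12 mice stand behind each group through 2 pools. The 3 sex comparisons (M3/F3, M4/F4, M8/F8) ask how male and female liver differ before and after puberty. The 4 age comparisons (M8/M3 and M8/M4 in males, F8/F3 and F8/F4 in females) ask what changes within a sex on the way to young adulthood. All values are log2 ratios of male over female or of 8 wk over the younger age, with both array values given before the fitted ratio. The number of arrays limits the precision.

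Liver takes up many of the amino acids that arrive from the gut and oxidizes their carbon skeletons or turns them into glucose, while the first step of branched-chain amino acid breakdown takes place largely in other tissues. Catabolism usually starts with the removal of the amino group, by a transaminase or a deaminating enzyme, and the nitrogen is passed on to urea. Several of these enzymes are classical targets of glucocorticoids, glucagon and fasting, among them tyrosine aminotransferase (Tat), tryptophan dioxygenase (Tdo2) and serine dehydratase (Sds). Sex differences in rodent liver depend largely on the temporal pattern of pituitary growth hormone, which becomes sex-dependent at puberty and acts through the transcription factor STAT5.

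The samples carried the markers of liver and of the labelled sex. All 8 hepatocyte markers were flagged by the scanner software as clearly brighter than their surroundings (well above background) in all 28 channels. Ddx3y, a gene of the Y chromosome, had M/F ratios of 6.29 to 6.58, and Xist, which is transcribed from the inactive X chromosome, was called lower in males at every age, with a male signal that was not well above background at 4 and 8 wk. Of the enzymes, 38 were well above background in all 28 channels, and Amt was so in 25. Between 55.2% and 77.2% of the 43020 spots that were not controls were well above background in a channel, and no spot was saturated. The sex comparisons and M8/M3 were scanned on a first day on slides 1 and 2 and the other comparisons on a second day on slides 3 and 4, so a comparison and its scan day cannot be told apart. The same pools served in several comparisons, which are therefore not independent of each other.

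A gene was called where it passed an adjusted p of 0.05 in limma and a fold of 1.5 in either direction, and where the arrays of at least 1 group were well above background. Calls in 1 or more of the 7 comparisons were made for 18 of the 39 enzymes, beside 3537 of 15306 genes tested (23.1%). The other 21 were called in none, and their ratios ranged from -0.53 (Gpt in M8/F8) to 0.51 (Gstz1 in F8/F4). Every call in a sex comparison was for a lower level in male liver, and all but 2 calls in the age comparisons were for a higher level at 8 wk. The 2 exceptions were Mat1a and Got1 in M8/M3.

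**Figure D1:**
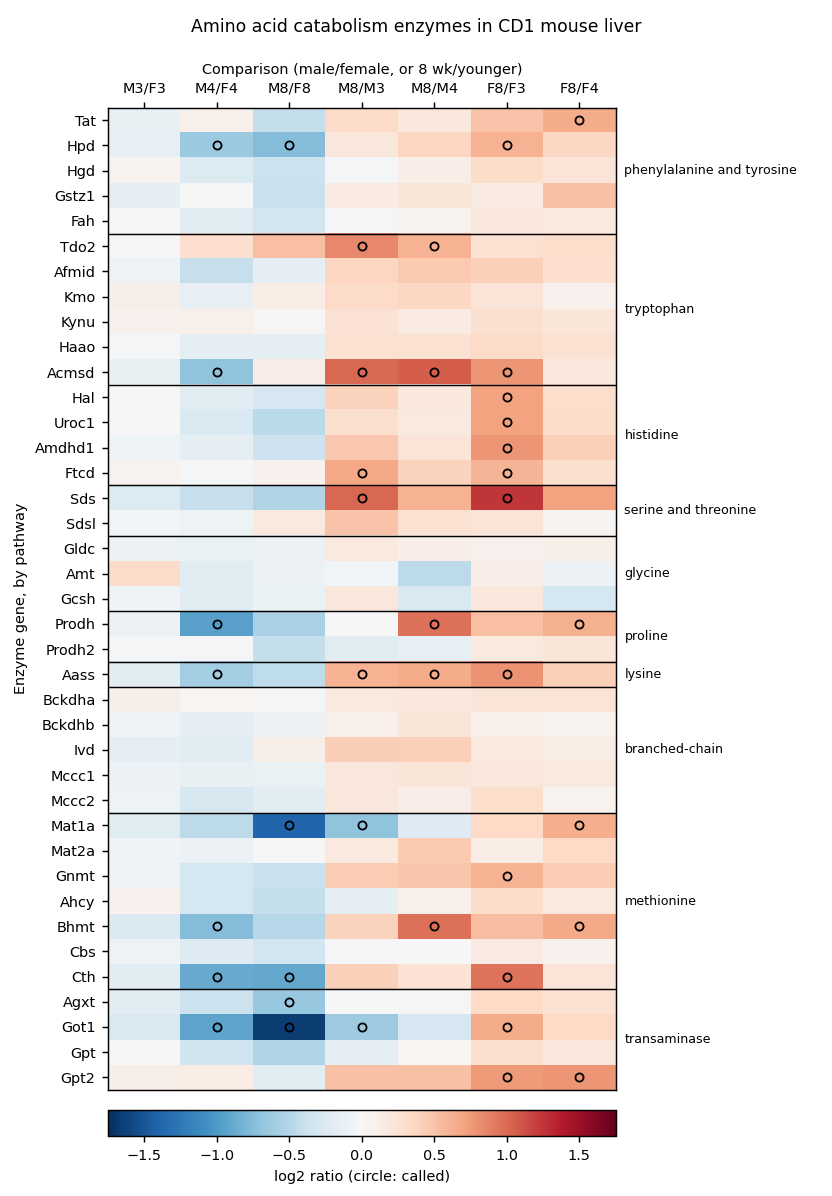
Fitted log2 ratios (colour, scale in log2 units) of the 39 enzymes, in rows by pathway, in the 7 comparisons, in columns, with a circle on each call. The sex comparisons M4/F4 and M8/F8 hold 7 and 5 circles, all on blue cells, and F8/F3 holds 12, all on red cells.

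In the sex comparisons the enzymes showed no called difference at 3 wk and 7 and 5 lower levels in males at 4 and 8 wk. In M3/F3 none of the 38 enzymes that were bright enough was called, beside 0.517% of genes tested, and none had an adjusted p below 0.05 in limma (3 had an unadjusted p below 0.05, and all 13 alternatives gave 0 calls as well). In M4/F4 the levels of Hpd, Acmsd, Prodh, Aass, Bhmt, Cth and Got1 were lower in males, 7 of 39 enzymes, beside 1.58% of genes called in either direction. In M8/F8 Hpd, Mat1a, Cth, Agxt and Got1 were lower in males, 5 of 39, beside 3.74% of genes called down. None was called higher, beside 2.66% of genes called up, and 2 were higher at an unadjusted p below 0.05. At 3, 4 and 8 wk the enzymes had median fitted male/female ratios of -0.08, -0.19 and -0.32. The medians on the single arrays were -0.14 and 0.02, -0.17 and -0.26, and -0.30 and -0.26, so that those at 4 and 8 wk lay close together on the second array. The median difference between the sexes in the change from 4 to 8 wk was -0.0004, with 19 enzymes above 0 and 20 below. The medians over all genes tested lay between -0.0012 and 0.0031. Ratios below 0 were found for 30, 33 and 32 of the 39 enzymes. With no fold threshold 13 of 39 enzymes differed at 4 wk, beside 7.91% of genes tested, and 16 of 39 at 8 wk, beside 21.8%, of which 12 and 15 were lower in males. The count in M4/F4 was 3 when either of its arrays was left out, and that in M8/F8 was 3 without replicate 1.

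From the younger ages to 8 wk most calls were increases, for more of the 39 enzymes in female than in male liver, whereas over all genes more were called in males. Between 3 and 8 wk, 12 of 39 enzymes rose in females (5.08% of genes were called up in F8/F3) and none fell (6.64% were called down). In males 5 rose from 3 to 8 wk (7.81% of genes up in M8/M3) and 2 fell (10.0% down). From 4 to 8 wk 5 rose in males (4.43% up in M8/M4) and none fell (6.37% down), and 5 rose in females (2.28% up in F8/F4) and none fell (3.72% down). At an unadjusted p below 0.05, 1 enzyme was lower in males from 4 wk and 0 in females from either age. Fitted ratios above 0 were found in females for 39 enzymes from 3 wk and 37 from 4 wk, and in males for 30 from 3 wk and 33 from 4 wk. The medians were 0.33 and 0.26 in females and 0.20 and 0.21 in males, and the medians over all genes tested lay between 0.01 and 0.02. Calls in either age comparison were made for 9 enzymes in male liver, beside 18.9% of genes tested, and for 16 in female liver, beside 12.2%. Of the 8 called in both sexes, Mat1a and Got1 were called down in males and up in females. A test of the difference between the sexes, M8/M3 minus F8/F3, was passed by Mat1a and Got1 only (2 of 39, beside 3.36% of genes), and M8/M4 minus F8/F4 by Mat1a only (1 of 39, beside 1.31%), so the larger number of calls in females was not shown to be a difference between the sexes for the other enzymes. Without replicate 2 the count in F8/F3 was 2, and without replicate 1 it was 6. The counts were 3 without replicate 1 and 4 without replicate 2 in M8/M3, 2 without replicate 2 in M8/M4, and 2 when either array of F8/F4 was left out.

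Got1, the cytosolic aspartate aminotransferase, had the largest sex ratio of the 39 enzymes, and from 3 to 8 wk its level moved in opposite directions in the sexes. The arrays gave -0.58 and 0.06 in M3/F3, -0.87 and -0.97 in M4/F4 and -1.86 and -1.46 in M8/F8. The arrays of M3/F3 lay on both sides of 0, and all 4 of the later sex arrays lay below every array of M3/F3. The level in males was 1.89-fold lower than in females at 4 wk (log2 ratio -0.92, SE 0.127, adjusted p = 0.00436) and 3.16-fold lower at 8 wk (-1.66, SE 0.127, adjusted p = 0.000502), and both calls held under all 13 alternatives. From 3 to 8 wk Got1 fell in males, with array values of -0.50 and -0.76, and rose in females, with values of 0.77 and 0.54. The fitted ratios were -0.63 and 0.65, 1.55-fold down and 1.57-fold up. Their difference was -1.29 (SE 0.179, adjusted p = 0.014). It was -1.40 when taken as M8/F8 minus M3/F3, whose arrays were all scanned on the first day (adjusted p = 0.0106). The difference ranged from -1.36 to -1.27 over the 14 alternatives planned, and its call was lost when any 1 of the 4 arrays behind M8/M3 and F8/F3 was left out. The calls for the fall and the rise were each lost when either of their arrays was left out and with the slide as a block. From 4 to 8 wk the ratios were -0.30 in males and 0.35 in females, neither of them called.

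Among the other transaminases Agxt, Gpt2 and Gpt had smaller ratios. Agxt, which converts glyoxylate to glycine, was lower in 8 wk males, with array values of -0.84 and -0.48 and a fitted ratio of -0.66 (1.58-fold lower, adjusted p = 0.00666), a call that was lost without replicate 1. In the 4 age comparisons its ratios were between -0.01 and 0.34. Gpt2, the mitochondrial alanine aminotransferase, rose in females, with array values of 1.14 and 0.36 from 3 wk and 1.16 and 0.40 from 4 wk. In both comparisons replicate 1 was far above replicate 2, and both calls (limma adjusted p = 0.043 and 0.0372) were lost without the dye term, with the replicate block (adjusted p = 0.0653 and 0.058), with the slide as a block and when either array was left out. In males the fitted ratios of 0.52 and 0.51 were not called. Gpt, the alanine aminotransferase of the cytosol, was not called, but its arrays agreed closely in M8/F8 (-0.53 and -0.52, adjusted p = 0.00185), just inside the fold threshold.

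**Figure D2:**
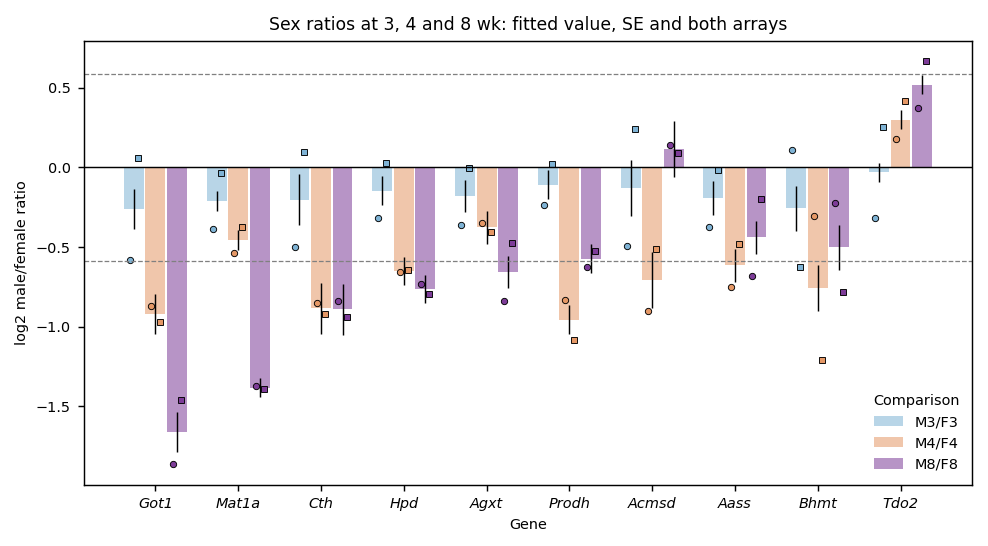
Log2 male/female ratios of the 9 enzymes called in a sex comparison and of Tdo2, at 3, 4 and 8 wk. Bars are fitted ratios, lines their SE, circles and squares the arrays of replicates 1 and 2, and dashed lines a 1.5-fold difference in either direction. Got1 and Mat1a reach -1.66 and -1.38 at 8 wk, and Tdo2 has ratios above 0 on both arrays at 4 and 8 wk.

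Methionine is activated to S-adenosylmethionine, the general methyl donor, spent in methyl transfer, and then either remade from homocysteine or led through cystathionine to cysteine. Mat1a, the adult liver form of the activating enzyme, had the smallest adjusted p among the 39 enzymes in the sex comparisons. Its arrays gave -0.39 and -0.04 in M3/F3, -0.54 and -0.37 in M4/F4 and -1.37 and -1.39 in M8/F8. All 6 arrays were below 0, and the 2 arrays at 8 wk lay apart from the other 4. Mat1a was 2.60-fold lower in males at 8 wk (log2 ratio -1.38, SE 0.0624, adjusted p = 0.000117). It fell from 3 to 8 wk in males (-0.64 and -0.77, fitted -0.71) and had ratios of 0.36 and 0.34 in females (fitted 0.35, adjusted p = 0.0116, inside the fold threshold). From 4 to 8 wk it rose 1.55-fold in females (0.64 and 0.63), a call that was lost without replicate 2, and had ratios of -0.18 and -0.26 in males. The sex-dependent change was -1.06 through 3 wk (SE 0.0883, adjusted p = 0.00281) and -0.85 through 4 wk (SE 0.0883, adjusted p = 0.0106). The call through 3 wk held under every alternative, and that through 4 wk was lost without replicate 2 of F8/F4 and with the pools in the covariance. As M8/F8 minus M3/F3 and M8/F8 minus M4/F4, within the first scan day, the differences were -1.17 and -0.93. Mat2a, the form of the same enzyme that other tissues use, had ratios of -0.10 to 0.45 and was not called.

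Cth, which releases cysteine from cystathionine, had sex ratios of the same size at 4 and 8 wk. Its arrays were at -0.50 and 0.10 in M3/F3, -0.85 and -0.92 in M4/F4 and -0.84 and -0.94 in M8/F8. The arrays at 4 and 8 wk lay in 1 narrow range below both arrays at 3 wk. The level was 1.85-fold lower in males at both ages (adjusted p = 0.0121 and 0.0118). In females Cth rose 1.93-fold from 3 to 8 wk (0.67 and 1.22), and the ratio in males was 0.41, not called. Both probes of Cth were called in these 3 comparisons. Each of the sex calls was lost when either array of its comparison was left out, and the rise in females was lost without replicate 2.

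Bhmt, which remakes methionine from homocysteine with betaine, gave array values of -0.30 and -1.21 in M4/F4, 0.21 and 1.71 in M8/M4 and 0.13 and 1.19 in F8/F4. The sign was the same on both arrays of each, but replicate 2 was several times as large as replicate 1. The probe had the largest dye term of the 39 enzymes, 0.46 in favour of red (SE 0.0536, adjusted p = 0.00698), and the fit, which takes this term out, gave ratios of -0.76, 0.96 and 0.66 with adjusted p-values of 0.0143, 0.0057 and 0.024. All 3 calls were lost without the dye term, those in M4/F4 and F8/F4 also when either of their arrays was left out, and that in F8/F4 with the mean of all 3 probes and with an error-weighted mean. Of its 2 other probes, 1 was called in M4/F4, both in M8/M4 and none in F8/F4. Gnmt, which disposes of surplus methyl groups, rose 1.53-fold in F8/F3 (0.46 and 0.76), a call that was lost without replicate 2. Its ratios in M8/M3, M8/M4 and F8/F4 were 0.44, 0.49 and 0.45, each with an adjusted p below the threshold and a fold inside it. Ahcy and Cbs were called nowhere.

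**Figure D3:**
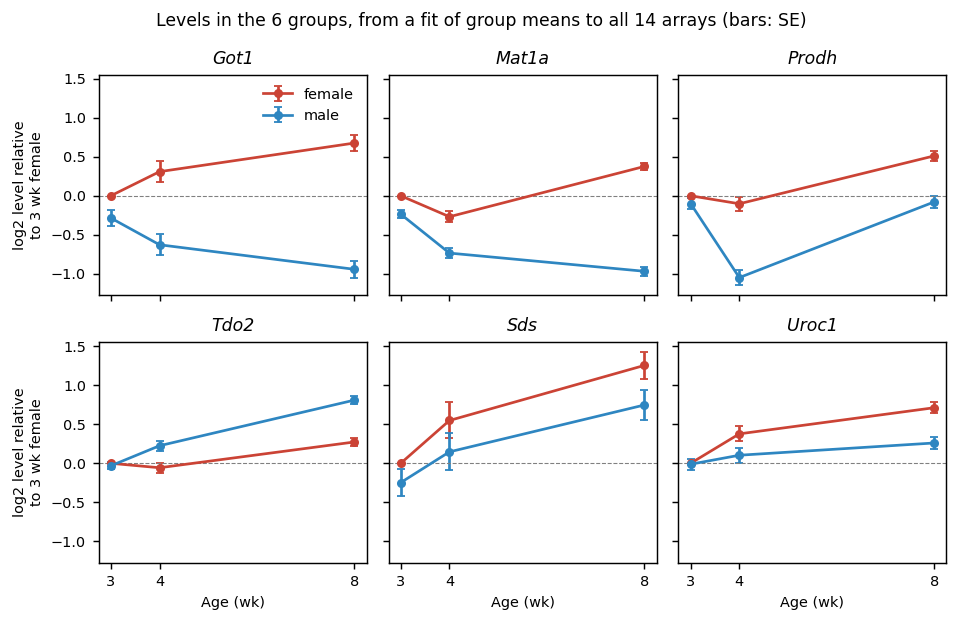
Log2 level of 6 enzymes in the 6 groups relative to 3 wk females, against age in wk, from a fit of group means with the dye term to all 14 arrays. Lines with points are females and males, and bars are the SE of the difference from 3 wk females. Got1 and Mat1a part with age, to 0.68 and 0.38 in 8 wk females and -0.94 and -0.97 in 8 wk males, and Prodh dips to -1.05 in 4 wk males.

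Prodh, the mitochondrial dehydrogenase that opens proline breakdown, was lowest in 4 wk males. Its arrays gave -0.24 and 0.02 in M3/F3, -0.83 and -1.08 in M4/F4 and -0.62 and -0.52 in M8/F8. The arrays of M4/F4 were the lowest and those of M3/F3 the highest, with no overlap between ages. Males were 1.94-fold lower at 4 wk (log2 ratio -0.96, SE 0.0909, adjusted p = 0.00109), and the ratio of -0.57 at 8 wk (adjusted p = 0.00754) stopped just short of the fold threshold. From 4 to 8 wk Prodh rose 1.95-fold in males (0.88 and 1.05) and 1.54-fold in females (0.74 and 0.51), whereas M8/M3 was 0.03 and -0.01. Compared through the 8 wk pools, 4 wk males were thus 1.93-fold below 3 wk males (-0.95, SE 0.129, adjusted p = 0.0477). It was the 1 enzyme called for this step in males, beside 0.295% of genes, and none was called for it in females, beside 0.0945% of genes. At an unadjusted p below 0.05 the step had 2 enzymes up and 4 down in males and 8 up and 2 down in females. The call from 3 to 4 wk was lost with the replicate block (adjusted p = 0.0662), with the slide as a block and when any 1 of the 4 arrays behind it was left out. The calls in M4/F4 and M8/M4 held under every alternative, and the call in F8/F4 was lost without replicate 1. Prodh2, a related dehydrogenase that acts on hydroxyproline, was called nowhere, with its largest ratio in M8/F8 (-0.30 and -0.53, fitted -0.42, adjusted p = 0.00544).

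Histidine is degraded in a fixed order by histidase (Hal), urocanase (Uroc1), imidazolonepropionase (Amdhd1) and the formiminotransferase Ftcd, which hands the carbon to folate. All 4 enzymes rose in females from 3 to 8 wk. The arrays of F8/F3 gave 0.59 and 0.82 for Hal, 0.73 and 0.68 for Uroc1, 0.67 and 0.86 for Amdhd1 and 0.65 and 0.53 for Ftcd. The values of Hal, Uroc1 and Amdhd1 overlapped, and those of Ftcd overlapped with Hal alone. The fitted changes were 1.63-fold, 1.63-fold, 1.70-fold and 1.51-fold (adjusted p = 0.00442, 0.00399, 0.0042 and 0.0297). In males Ftcd alone was called (0.61 and 0.74 in M8/M3, 1.60-fold), while Hal, Uroc1 and Amdhd1 had ratios of 0.41, 0.28 and 0.47. In M8/F8 these 3 had ratios of -0.29, -0.47 and -0.36 and were not called. Single arrays decided most of these calls: Hal and Amdhd1 were lost without replicate 2 of F8/F3, Uroc1 without replicate 1, and Ftcd when either array was left out and with the slide as a block in both sexes. No call was made for the 4 genes in a comparison with 4 wk mice, where the ratios were 0.17 to 0.40 in males and 0.29 to 0.41 in females.

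Hal and Amdhd1 are neighbours on chromosome 10, with no coding gene between them, and so are Sds and Sdsl on chromosome 5. The 150 bases before the start of the 4 histidine enzymes, which moved together in F8/F3, are shown with those of Prodh and Got1, the enzymes with the largest sex ratios at 4 wk. They were taken from RefSeq promoters of build GRCm38.p6 and are printed 5′ to 3′ on the strand of the gene. Hal lies at chr10:93488618-93488767 (plus strand), Uroc1 at chr6:90333139-90333288 (plus), Amdhd1 at chr10:93540034-93540183 (minus), Ftcd at chr10:76575498-76575647 (plus), Prodh at chr16:18089191-18089340 (minus) and Got1 at chr19:43524606-43524755 (minus). Capitals mark a match to TATAAA, to a STAT5 motif or to CCAAT, which reads ATTGG where it lies on the other strand.
Hal: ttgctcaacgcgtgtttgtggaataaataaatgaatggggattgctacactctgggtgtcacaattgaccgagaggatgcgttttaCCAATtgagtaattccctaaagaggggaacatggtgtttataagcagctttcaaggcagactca
Uroc1: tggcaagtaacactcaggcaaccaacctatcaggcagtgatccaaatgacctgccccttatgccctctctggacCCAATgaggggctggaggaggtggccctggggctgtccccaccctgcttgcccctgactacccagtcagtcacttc
Amdhd1: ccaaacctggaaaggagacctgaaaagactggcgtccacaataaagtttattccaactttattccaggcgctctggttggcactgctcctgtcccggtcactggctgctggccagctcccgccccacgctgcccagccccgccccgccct
Ftcd: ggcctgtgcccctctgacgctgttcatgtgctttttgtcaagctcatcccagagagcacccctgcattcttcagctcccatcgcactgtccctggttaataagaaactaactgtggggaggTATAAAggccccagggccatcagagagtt
Prodh: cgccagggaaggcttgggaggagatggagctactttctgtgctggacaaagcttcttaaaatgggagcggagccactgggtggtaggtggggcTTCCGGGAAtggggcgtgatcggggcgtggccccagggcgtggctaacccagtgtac
Got1: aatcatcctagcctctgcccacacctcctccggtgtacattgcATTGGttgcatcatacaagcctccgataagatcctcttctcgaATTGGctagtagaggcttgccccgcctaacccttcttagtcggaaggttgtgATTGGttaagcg
Ftcd has a TATA box (TATAAA on the gene's strand), Prodh a STAT5 motif (TTCNNNGAA, either strand) and Got1 3 copies of CCAAT. Promoters were held for 33 of the 39 enzymes, 35 in all, and were searched over 250 bases before the start. A STAT5 motif was found in 2 of the 35 (Ivd and Prodh) and in 7.02% of all 32851 promoters, non-coding genes included. TATAAA was found in 3 (Ftcd, Mat2a and Tdo2; 7.59% of all), CCAAT on either strand in 22 (33.8% of all) and the E-box CACGTG in 2 (Cbs and Mccc2; 6.02% of all). The HNF4 motif CAAAGTCCA, the cyclic AMP element TGACGTCA and the D-box TTATGTAA, on either strand, were in none of the 35 and in 0.384%, 1.55% and 0.819% of all.

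**Figure D4:**
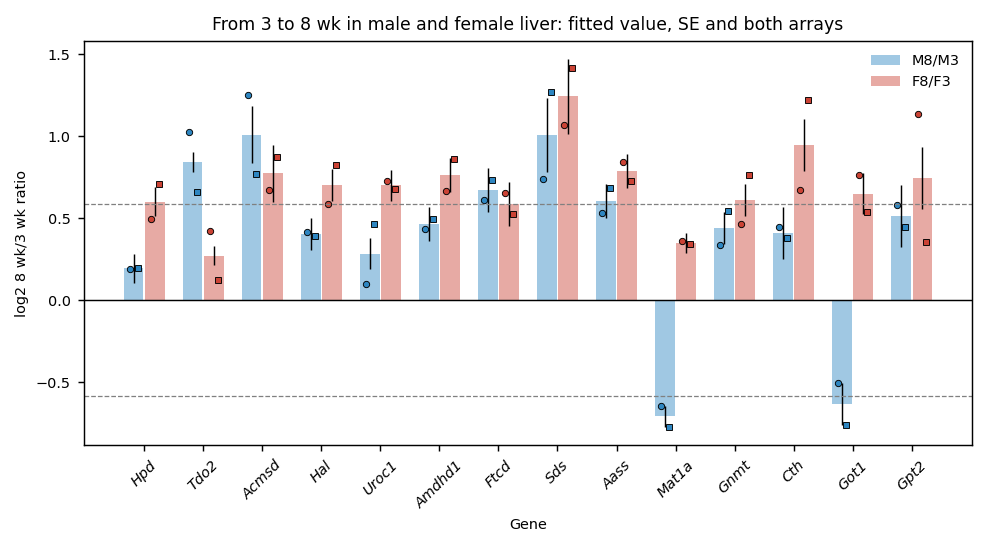
Log2 ratios of 8 wk over 3 wk in male (blue) and female (red) liver for the 14 enzymes called in either sex. Bars are fitted ratios, lines their SE, circles and squares the arrays of replicates 1 and 2, and dashed lines a 1.5-fold difference in either direction. Mat1a and Got1 have opposite signs in the sexes, and Sds has the largest increase in females (1.24).

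Sds, which deaminates serine and threonine to keto acids for gluconeogenesis, had the largest increase of all 39 enzymes. The arrays were at 1.07 and 1.42 in F8/F3 and 0.74 and 1.27 in M8/M3. The ranges of the sexes overlapped, and the level rose 2.37-fold in females and 2.01-fold in males (adjusted p = 0.0129 and 0.0284). Each call was lost when either of its arrays was left out, and that in males with the slide as a block. The related gene Sdsl had ratios of 0.65 and 0.34 in M8/M3 and was not called. Glycine cleavage takes place in a mitochondrial complex, of which Gldc, Amt and Gcsh were measured. None of them was called. Ratios of Gldc stayed between -0.11 and 0.17, and those of Amt lay as far apart as 0.90 and -0.23 on the arrays of M3/F3. The 3 probes of Gcsh differed in direction in M3/F3, M8/M3 and F8/F4.

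Tryptophan is opened by Tdo2 and led along the kynurenine pathway, where Acmsd, a decarboxylase, turns the flow away from NAD synthesis. Tdo2 was the enzyme with the highest M/F ratio at 8 wk. Its arrays gave -0.32 and 0.25 in M3/F3, 0.18 and 0.42 in M4/F4 and 0.37 and 0.67 in M8/F8. The fitted ratios of 0.30 and 0.52 at 4 and 8 wk had adjusted p-values of 0.0186 and 0.00224 and were inside the fold threshold. In males Tdo2 rose 1.79-fold from 3 wk (1.03 and 0.66, adjusted p = 0.000404) and 1.52-fold from 4 wk (0.70 and 0.51), and in females the ratios of 0.27 and 0.31 (adjusted p = 0.0263 and 0.0156) were inside the fold threshold. The difference of the sexes through 3 wk was 0.57 (SE 0.0850, adjusted p = 0.0175), a ratio of ratios just under 1.5. The call in M8/M3 held under every alternative, and that in M8/M4 was lost without the dye term and without replicate 2.

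Acmsd was called between the sexes at 4 wk alone, and its fitted ratio at 8 wk was 0.12 (adjusted p = 0.846). The arrays were at -0.49 and 0.24 in M3/F3, -0.90 and -0.52 in M4/F4 and 0.14 and 0.09 in M8/F8. It was 1.63-fold lower in 4 wk males (adjusted p = 0.0396), a call that was lost when either array was left out, without the dye term, with the replicate block (adjusted p = 0.0506) and with the slide as a block. Acmsd rose 2.02-fold from 3 wk (1.25 and 0.77) and 2.08-fold from 4 wk (1.25 and 0.86) in males, and 1.71-fold from 3 wk in females (0.67 and 0.88). From 4 to 8 wk the arrays in females were at 0.08 and 0.29. The call in M8/M3 was lost without replicate 1, and the other 2 calls for a rise when either of their arrays was left out. The call in F8/F3 was also lost with the slide as a block (adjusted p = 0.0501). Afmid, Kmo, Kynu and Haao, the enzymes between Tdo2 and Acmsd, had ratios of -0.40 to 0.46 and were not called. Of these, Haao had 4 age ratios between 0.27 and 0.33, each with an adjusted p below the threshold.

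Tyrosine breakdown runs through Tat, Hpd, Hgd, Gstz1 and Fah to fumarate and acetoacetate. Hpd, the dioxygenase of the pathway's second step, was lower in males at 4 wk (-0.66 and -0.65) and at 8 wk (-0.73 and -0.80), 1.57-fold and 1.70-fold (adjusted p = 0.00449 and 0.00242). In M3/F3 its arrays were at -0.32 and 0.03, above all 4 of these values. Both calls held under every alternative. In females Hpd rose 1.52-fold from 3 to 8 wk (0.50 and 0.71), which was lost without replicate 2. Hgd, the next enzyme, had ratios of -0.24 in M4/F4 (-0.23 and -0.26) and -0.37 in M8/F8 (-0.36 and -0.38), and Fah had -0.32 in M8/F8, all with adjusted p-values below the threshold and folds inside it. Tat rose 1.57-fold from 4 to 8 wk in females (0.77 and 0.52, adjusted p = 0.000207), a call that held under every alternative, and its ratio in M8/F8 was -0.41 (-0.48 and -0.34). Gstz1 was not called.

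Aass, the enzyme with both activities that start lysine breakdown, was called in 4 of the 7 comparisons. It was lower in males at 4 wk (-0.75 and -0.48, 1.53-fold, adjusted p = 0.0101). It rose from 3 to 8 wk in females (0.85 and 0.73, 1.73-fold) and in males (0.53 and 0.68, 1.52-fold), and from 4 to 8 wk in males (0.64 and 0.66, 1.57-fold). The call in F8/F3 held under every alternative. The call in M4/F4 was lost when either array was left out, those in M8/M3 and M8/M4 without replicate 2, and those in M4/F4 and M8/M3 also with normexp and loess. Of the 5 enzymes of branched-chain amino acid breakdown, Bckdha and Bckdhb belong to the dehydrogenase complex, Ivd acts on the product of leucine, and Mccc1 and Mccc2 form the next carboxylase. None of the 5 was called, and their ratios ranged from -0.29 (Mccc2 in M4/F4) to 0.44 (Ivd in M8/M3). Ivd had the smallest adjusted p-values among them, 0.00556 in M8/M3 (0.51 and 0.36) and 0.00647 in M8/M4 (0.47 and 0.37), and its fitted ratios in females were 0.17 and 0.13.

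The comparison of the sexes at 8 wk was also reached through the younger mice, since M8/M3 plus M3/F3 minus F8/F3 gives M8/F8. The measured M8/F8 ratio of the 39 enzymes and the ratio reached through 3 wk differed by a median of 0.07 and by at most 0.27, and through 4 wk by a median of 0.03 and at most 0.43. For Got1 the ratios were -1.66 measured, -1.55 through 3 wk and -1.57 through 4 wk, and for Mat1a -1.38, -1.27 and -1.31. Same-numbered pools are shared along these routes.

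Other enzymes that act beside these (66 with a probe) were described by count. In M8/F8, 5 were called up and 2 down, beside 2.66% and 3.74% of genes tested. From 3 to 8 wk 9 were called up and 5 down in each sex. Of all genes tested, 7.81% were called up and 10.0% down in M8/M3, and 5.08% and 6.64% in F8/F3. The median ratio of the 66 enzymes in M8/F8 was -0.05. Oat, which links ornithine with glutamate and proline, was 1.95-fold lower in males at 4 wk (fitted -0.96) and 2.47-fold lower at 8 wk (-1.33 and -1.28). It rose 2.90-fold in females and 1.58-fold in males from 3 to 8 wk, and the difference between the sexes was -0.88 (adjusted p = 0.00609). Aadat, an aminotransferase of the lysine and kynurenine pathways, was higher in 8 wk males (1.01 and 0.96, 1.98-fold) and rose 3.53-fold in males from 3 to 8 wk. Of 19 amino acid transporters, 5 rose in each sex from 3 to 8 wk (7.81% of genes up in M8/M3 and 5.08% in F8/F3). They were Slc7a2, Slc38a4, Slc16a10, Slc1a2 and Slc38a3 in both. In males 1 other, Slc38a1, fell 1.51-fold (-0.76 and -0.43). Slc1a2, a glutamate carrier, was lower in males at 4 wk (1.88-fold) and 8 wk (1.69-fold), and Slc16a10 at 4 wk (1.57-fold).

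Of 12 regulators of these pathways, 3 were called in any comparison, beside 23.1% of genes tested. Ppargc1a, a coactivator that is induced in fasting, was lower in 4 wk males (-1.19 and -1.02, 2.15-fold, adjusted p = 0.0143) and rose 1.76-fold in males from 4 wk and in females from 3 wk. Klf15, a factor that activates genes of amino acid breakdown, rose 1.71-fold from 3 wk and 1.63-fold from 4 wk in males, and its ratios in females, 0.39 and 0.51, were inside the fold threshold. Cebpb was lower in 3 wk males (1.52-fold) and rose in males from both ages. Hnf4a, Foxa2, Creb1, Nr3c1 and the other regulators were not called.

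**Figure D5:**
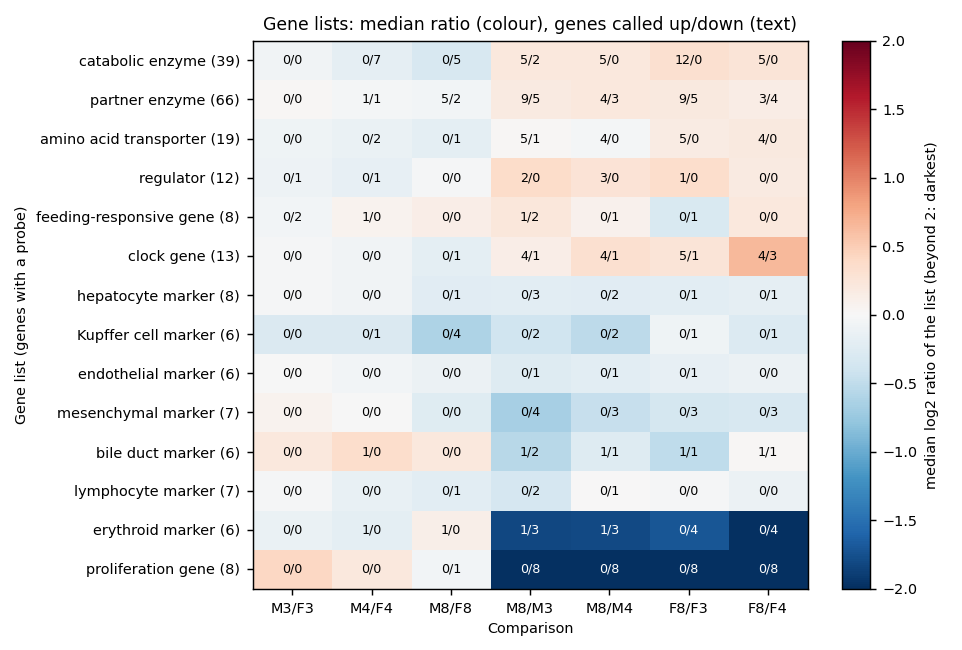
Median log2 ratio (colour) of the 39 catabolic enzymes and of 13 other gene lists in the 7 comparisons, with the number of genes called up and down in each cell and the number of genes with a probe after the name. All 8 proliferation genes are called down in every age comparison, and 4 of 6 Kupffer cell markers are called down in M8/F8.

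Markers of other cells moved with some of these comparisons. Levels were measured in whole liver, where fewer cells of a type and less RNA per cell cannot be told apart. In M8/F8, 4 of 6 Kupffer cell markers (Adgre1, Clec4f, Marco and Timd4) were called down (median ratio of the 6, -0.62), and their summed signal was 14600 to 21900 in the 6 channels with M8 and 23800 to 35800 in the 6 with F8. All 6 were well above background in every channel. In M4/F4, 1 of the 6 was called down (Marco), and in M3/F3 none. With age Marco was called down in all 4 comparisons, and Adgre1 in both male ones. Of 7 lymphocyte markers 1 was called down in M8/F8 (Cd3g), 2 in M8/M3 (Cd3g and Cd8a) and 1 in M8/M4 (Cd3g). Of 6 endothelial markers none was called in a sex comparison, and Lyve1 was called down in M8/M3, M8/M4 and F8/F3. Of 6 bile duct markers, Spp1 was called up in M4/F4 (0.92), where the summed signal was 3220 to 4630 in F4 and 4780 to 8130 in M4, with no overlap. With age Cftr was called up in all 4 comparisons, Krt19 down in both male ones, Krt7 down in M8/M3 and Sox9 down in both female ones. All 8 proliferation genes (Aurkb, Birc5, Bub1, Ccnb1, Cdk1, Mki67, Plk1 and Top2a) were called down in all 4 age comparisons, with a summed signal of 8690 to 20500 in F3, 12800 to 19700 in M3, 7080 to 13000 in F4, 7000 to 13400 in M4, 786 to 1860 in F8 and 682 to 1490 in M8. Of 7 mesenchymal markers, 3 were called down in each age comparison (Col1a1, Col1a2 and Col3a1), and Reln also in M8/M3. Of 6 erythroid markers 3 were called down in each male and 4 in each female age comparison. Alas2, the first enzyme of heme synthesis in erythroid cells and also on that list, was called up in M4/F4 (0.78), M8/F8 (1.89), M8/M3 (1.37) and M8/M4 (0.98). In M8/F8 3 of the 6 were bright enough for a test, and Slc4a1 and Ermap had -0.02 and -0.01. The summed erythroid signal was 9100 to 13000 in M8, 2340 to 3590 in F8 and 2840 to 5610 in M3. It was thus higher in M8 than in M3 although the median ratio of the 6 in M8/M3 was -1.82, so the sum does not stand for the whole list. Of 5 pancreatic acinar markers, 1 was called up in M8/F8 (Ctrb1, 0.59), 1 in M8/M3 (Ctrb1, 0.72) and 2 in M8/M4 (Cela2a, 1.03, and Ctrb1, 1.02). In M3/F3, Cela2a and Ctrb1 had 0.02 and 0.26. The other 3 were too dim for a test, each well above background in 1 M3 channel and no F3 channel, with 3.32 and -0.23 for Cpa1, 3.87 and 0.00 for Pnlip and 2.29 and 3.37 for Prss2. In M8/M3 these 3 had -2.14, -2.78 and -2.77 on the first array and 1.00, 2.70 and 1.89 on the second. The 8 hepatocyte markers had medians of -0.18 to -0.23 in the age comparisons, with 1 to 3 called down and none up. In M8/F8 their median was -0.22, with 1 called down (Ahsg), and their summed signal overlapped between all 6 groups (627000 to 1580000). Signals were not scaled between arrays, and the part of these cells in the ratios of the enzymes was not tested.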

How the data were processed

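Liver RNA pools were amplified in 1 round as antisense RNA, labelled with a green or a red Alexa dye and hybridized to Agilent arrays, per the labels. The deposited log10 values are red over green ratios from Feature Extraction 10.7.1.1, in which the authors subtracted background and normalized the dyes with a linear and a LOWESS step. The deposited signal intensity of each spot gave its brightness, and the deposited flags for signal over background decided which genes were tested. Ratios were turned by dye as labelled, put on the log2 scale and averaged over the spots of a probe, and 0 to 10 spots per array with uneven signal were left out. Amplification and dye normalization can both change the size of a ratio.

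Accessions matched to RefSeq on GRCm38.p6 named 26055 of 39429 probes. Where a gene had several probes, the brightest was used. limma 3.58.1 in R 4.3.3 (data.table package, version 1.17.8) fitted 7 comparisons and 1 dye term to 14 arrays. Benjamini-Hochberg adjustment ran over probes and comparisons together, and over probes alone for differences of comparisons. The fit was also run on simulated data, with changes put into M8/F8 and F8/F3 alone and every gene taken as bright. Real differences between groups would reach other comparisons too, so this run does not measure how often the calls here are right. The p-values measure 1 spread per probe, drawn from the gaps between arrays with separate pools in all 7 comparisons together. They do not measure the spread of a comparison's own 2 arrays. The fit takes arrays as independent, although pool variance was estimated at 4.17 times array variance over 21650 probes. The p-values of the authors' error model were not used. Same-numbered pools recurred: the gap between replicates 1 and 2 in M8/F8 minus M3/F3 correlated with that in M8/M3 minus F8/F3 at r = 0.882, and with 4 wk in place of 3 wk at r = 0.878, over 21650 probes. All 39 enzymes were described, with both array values for calls. For the other lists the rule took called genes, at most the 6 with the largest ratios of a list, and lists of up to 8 genes in full. The text names only some of these, gives the rest by counts, and names Arntl, Per1, Per2 and Nfil3 outside the rule, chosen after their values were seen. The enzymes and lists were chosen with earlier results of these data known. Alternatives changed the dye term, the model of pools, slides and replicate numbers, background correction, brightness filter, fold threshold and probe choice, and left out each array.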

Additional observations from a re-analysis of the deposited data

Results flagged for a closer look

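The change from 3 to 8 wk differed between the sexes for Mat1a by -1.06 on the log2 scale (SE 0.0883, limma adjusted p = 0.00281), with both male arrays below 0 and both female arrays above 0. It differed for Got1 by -1.29 (SE 0.179, limma adjusted p = 0.014), again with opposite signs on all 4 arrays. The change from 4 to 8 wk differed for Mat1a by -0.85 (SE 0.0883, limma adjusted p = 0.0106), with both male arrays below 0 and both female arrays above 0.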

How the results depend on the processing

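Over the 45 calls of single enzymes, 512 of 592 values under alternatives were called again, 80 kept their direction and lost the call, and 0 reversed; 12 calls held throughout. Without a fold threshold 13 enzymes were called in the sexes at 4 wk and 16 at 8 wk, 15 and 13 in males from 3 and 4 wk, 21 and 13 in females from 3 and 4 wk, and 5 and 2 for the differences between sexes through 3 and 4 wk, beside 7.91%, 21.8%, 42.0%, 29.6%, 33.7%, 21.3%, 6.50% and 2.07% of all genes tested in the same order. Leaving out 1 array of a comparison gave 3 to 3 calls for M4/F4, 3 to 6 for M8/F8, 3 to 4 for M8/M3, 2 to 6 for M8/M4, 2 to 6 for F8/F3, 2 to 2 for F8/F4, 1 to 1 and 0 to 1 for the differences between sexes and 0 to 0 for M4/M3. A comparison with 1 array left was assumed to vary like the others. Without the dye term 3 enzymes were called in M8/M4 and 3 in F8/F4. The slide as a block gave 4 in M8/M3 and 0 in M4/M3. The replicate block gave 0 in M4/M3 and changed no other count by more than 1.5 times. A fit of 6 group means gave 3 for the difference through 4 wk and 1 for F4/F3, and pools in the covariance gave 0 for the former. Differences between sexes taken from the sex comparisons, an alternative chosen after seeing the data, gave 3, of which 2 were shared, and 1. The causes were not tested. Amt was too dim for a test in M3/F3.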

Other observations

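Of the 66 enzymes that act beside the catabolic ones, Asns had the lowest ratio in F8/F3, Psat1 the lowest in M8/M3 and Csad the highest in M8/F8 and M8/M3. Oat, described above, had the lowest in M8/F8 and the highest in F8/F3. Asns, which makes asparagine, was 2.84-fold higher in 8 wk males than in females (array values 1.24 and 1.77, limma adjusted p = 0.00164) and fell 5.44-fold from 3 to 8 wk in females (-2.16 and -2.73) and 1.57-fold in males. The difference between the sexes was 1.79 (SE 0.227, adjusted p = 0.0105). Psat1, an enzyme of serine synthesis, fell from 3 to 8 wk in both sexes, 4.38-fold in males (-2.39 and -1.88) and 4.91-fold in females (-2.28 and -2.32). Csad, an enzyme of taurine synthesis, was 2.26-fold higher in males at 4 wk and 3.49-fold higher at 8 wk, and rose 3.87-fold in males from 3 to 8 wk.

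Genes that follow feeding or the time of day were called in some of the same comparisons. Pck1, an enzyme of gluconeogenesis, was 2.29-fold lower in 3 wk males than in females (-1.21 and -1.18) and rose 2.56-fold in males from 3 to 8 wk. Igfbp1 was 4.12-fold lower in 3 wk males (-1.58 and -2.50). Fgf21, a hormone of the fasted liver, was 3.00-fold higher in 4 wk males (1.59 and 1.58) and fell in M8/M3, M8/M4 and F8/F3 (3.00-fold, 2.44-fold and 2.53-fold), and Srebf1 fell 1.76-fold in M8/M3. Of 13 clock genes, 4 rose in males from either age (7.81% and 4.43% of genes up from 3 and 4 wk). In females 5 and 4 rose from 3 and 4 wk (5.08% and 2.28% up). Falls were called for 1 in M8/M3 (Per2), 1 in M8/M4 (Npas2), 1 in F8/F3 (Nfil3) and 3 in F8/F4 (Arntl, Npas2 and Nfil3). The shares of genes called down were 10.0%, 6.37%, 6.64% and 3.72% in the same order. Per1 was 2.29-fold lower in males at 8 wk. Dbp, Nr1d1, Nr1d2 and Tef rose in all 4 age comparisons (6.74-fold to 7.89-fold, 5.20-fold to 8.25-fold, 4.15-fold to 9.71-fold and 2.39-fold to 2.73-fold), and Per3 rose 3.95-fold in F8/F3. The hour at which mice were killed is not given in the sources used here, and the part of these genes' states in the ratios of the enzymes was not tested.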
